A study of Mus musculus with 6 samples.

Results

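The Gbp and Irg genes, which encode interferon-induced GTPases, were followed in subcutaneous white fat of mice, in 6 poly-A RNA-seq libraries. The genes were taken by name from the deposited table, and all 10 names were found among its 36144 gene rows. Of these, 6 are guanylate-binding proteins (Gbp2, Gbp3, Gbp5, Gbp6, Gbp7 and Gbp9) and 4 are immunity-related GTPases (Iigp1, Irgm1, Irgm2 and Igtp). The 6 libraries form 2 groups of 3 by their titles, WT and Tumor. The genotype label calls the first group MSRA WT and the second MSRA full-body KO, and every library carries the treatment label of an orthotopic transplant. The design text describes pancreatic ductal adenocarcinoma cells placed in the pancreas of both kinds of host, with fat collected 4 to 5 weeks later, while the series title contrasts tumour-bearing with tumour-free mice. Strain, sex and age are not in the labels used here. Titles and genotype labels divide the libraries alike, so they cannot be told apart as the source of a difference. The treatment label is the same in all 6 libraries and so does not set the groups apart. Groups are named below by title only. The replicates are called biological, with nothing said on litters or days or on whether the groups were handled together.

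Guanylate-binding proteins and immunity-related GTPases are cell-autonomous defence proteins that most cell types make after exposure to interferon, above all interferon gamma. Interferon gamma signals through its receptor and JAK kinases to a DNA element called GAS, and through the factor IRF1. Type I interferon signals to the interferon-stimulated response element, or ISRE. Gbp proteins assemble on the membranes of vacuoles and bacteria and promote inflammasome signalling, and some of them, Gbp2 and Gbp5 included, are anchored to membranes by prenylation. Among the immunity-related GTPases, Irgm1, Irgm2 and Igtp (also called Irgm3) are regulators that reside on the cell's own membranes and restrain the effector proteins, of which Iigp1 (also called Irga6) attacks parasite vacuoles.

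Msra was not absent from any library labelled as its knockout. It stood at 52.9, 40.0 and 26.9 TPM (transcript abundance corrected for transcript length and scaled to a fixed library total) under the title Tumor. Under WT it stood at 51.1, 59.1 and 56.3 TPM. The means were 39.9 under Tumor and 55.5 TPM under WT, a log2 difference of -0.51, with groups that overlapped. A gene total does not show whether the transcript is intact, so directions below rest on titles. Each library summed to 1000000 TPM, read totals are not known, and 13077 to 14253 genes reached 1 TPM. Lymphoid RNA was abundant in 4 libraries, WT replicates 1 and 2 and Tumor replicates 2 and 3, where the B cell gene Cd79a stood at 235 to 712 TPM, against 0.775 TPM in WT replicate 3 and 1.71 TPM in Tumor replicate 1. These are called lymphoid-rich and lymphoid-poor below, a division made from the values. Summed over 10 B and plasma cell markers (Mzb1 was listed at 0 in 1 library) the ranges were 8.51 to 997 TPM under WT and 11.7 to 2651 TPM under Tumor, and over 10 T cell markers 8.64 to 1180 and 20.5 to 1813 TPM. The 10 macrophage markers summed to 1867 to 2235 TPM under WT and 2508 to 4438 TPM under Tumor, the one list of 11 whose sums did not overlap. Of these markers 3 were separated and none was at 0. By log2 difference, Tumor minus WT, 8 were positive and 2 negative, with a median of 0.34 against 0.23 over all genes tested. The 8 NK cell markers summed to 18.5 to 117 and 38.6 to 202 TPM, with 3 of 8 separated. Separation with Tumor higher was shown by 11.8% of all genes tested. Dendritic cell sums (8 markers) ran from 34.6 to 135 and from 57.4 to 191 TPM, neutrophil sums (8, of which Ly6g and Retnlg were listed at 0 in some libraries) from 25.1 to 343 and from 13.6 to 103 TPM, and lymph node stroma sums (8, Chst4 at 0 in some) from 46.6 to 2386 and from 59.2 to 3828 TPM. Adipocyte markers, which define the labelled tissue, summed to 30548 to 54164 TPM under WT and 12614 to 44275 TPM under Tumor. Endothelial markers summed to 484 to 793 and 464 to 729 TPM, fibroblast and progenitor markers to 985 to 3165 and 910 to 7212 TPM, and skeletal muscle markers to 108 to 2971 and 735 to 2601 TPM. In whole tissue, fewer cells of a type and less RNA per cell cannot be told apart.

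The 10 genes lie in a few clusters of related copies (GRCm38, GENCODE M21). Gbp5, Gbp7, Gbp3 and Gbp2 follow one another on chromosome 3, at 142493978 to 142522344, 142530342 to 142550149, 142560026 to 142573209 and 142620602 to 142638008, all on the plus strand. Gbp9 (105077630 to 105139539) and Gbp6 (105270702 to 105293698) are on the minus strand of chromosome 5. Irgm1 is on chromosome 11 at 48861968 to 48871683, and Igtp (58199556 to 58207591) and Irgm2 (58199618 to 58222782) overlap each other on its plus strand. All 10 are annotated as protein-coding.

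The stretches before the start sites are shown because the 7 genes with a RefSeq promoter entry (GRCm38.p6, 250 bases before to 50 after the start) all held an ISRE core. The ISRE core was searched on both strands as GAAA, any 2 bases and GAAA, and the GAS motif as TTC, any 3 bases and GAA, which is its own reverse complement. Capitals mark both motifs, each stretch is written 5′ to 3′ on the gene's strand, and no stretch runs past the RefSeq start site. Gbp6, Gbp9 and Iigp1 had no entry, and Gbp3 had 2, of which 1 held the ISRE core. For Gbp7 and Irgm2 the first 25 bases after the RefSeq start were not found in a GENCODE M21 transcript of the gene. The stretches of Gbp5, Irgm1 and Irgm2 lie inside the gene spans given above, and those of Gbp2 and Gbp3 partly so, as RefSeq and GENCODE starts differ.
Gbp2, chr3:142620574-142620643, plus strand: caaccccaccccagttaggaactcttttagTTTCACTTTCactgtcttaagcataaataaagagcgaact
Gbp3, chr3:142559969-142560043, plus strand: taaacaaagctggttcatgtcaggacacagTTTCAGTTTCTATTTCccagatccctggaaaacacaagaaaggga
Gbp5, chr3:142496684-142496920, plus strand: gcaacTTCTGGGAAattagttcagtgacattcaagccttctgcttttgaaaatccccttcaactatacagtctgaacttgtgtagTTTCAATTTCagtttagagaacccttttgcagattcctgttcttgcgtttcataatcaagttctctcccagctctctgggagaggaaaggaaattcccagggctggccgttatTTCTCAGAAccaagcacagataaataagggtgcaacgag
Gbp7, chr3:142530200-142530322, plus strand: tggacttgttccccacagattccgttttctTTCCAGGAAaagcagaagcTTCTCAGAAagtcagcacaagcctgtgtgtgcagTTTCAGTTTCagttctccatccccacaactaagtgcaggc
Irgm1, chr11:48871421-48871480, minus strand: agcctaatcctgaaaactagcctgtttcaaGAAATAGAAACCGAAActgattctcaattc
Irgm2, chr11:58214872-58214952, plus strand: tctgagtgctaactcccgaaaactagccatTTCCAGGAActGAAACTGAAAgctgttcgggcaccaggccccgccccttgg
Igtp, chr11:58199481-58199555, plus strand: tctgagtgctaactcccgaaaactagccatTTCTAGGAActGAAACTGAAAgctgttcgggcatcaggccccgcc

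In the Gbp genes shown the ISRE core reads on the strand opposite to the gene, as a pair of TTTC copies. In Irgm1, Irgm2 and Igtp it reads on the gene's own strand. Of the other Irg family genes with a match, Tgtp1, Tgtp2 and Gm12185 hold it on their own strand and Gm12250 on the opposite strand. In Gbp3 and Irgm1 a pair of matches overlaps and is printed as 1 run of capitals. Of 27025 genes with a promoter entry, 3.99% held the ISRE core and 9.55% held the GAS motif. The GAS motif was found in 4 of the 7 genes, Gbp5, Gbp7, Irgm2 and Igtp, and 0.54% of all genes held both motifs. In Irgm2 and Igtp the GAS motif was followed by the ISRE core after 2 bases, and the same spacing was found in Tgtp1, Tgtp2 and Gm12185, other genes of the Irg family. The first 75 bases of the Irgm2 stretch matched the Igtp stretch at 73 positions. These genes are copies of one another, so their promoters are not independent, and a match is a description of letters only.

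**Figure D1:**
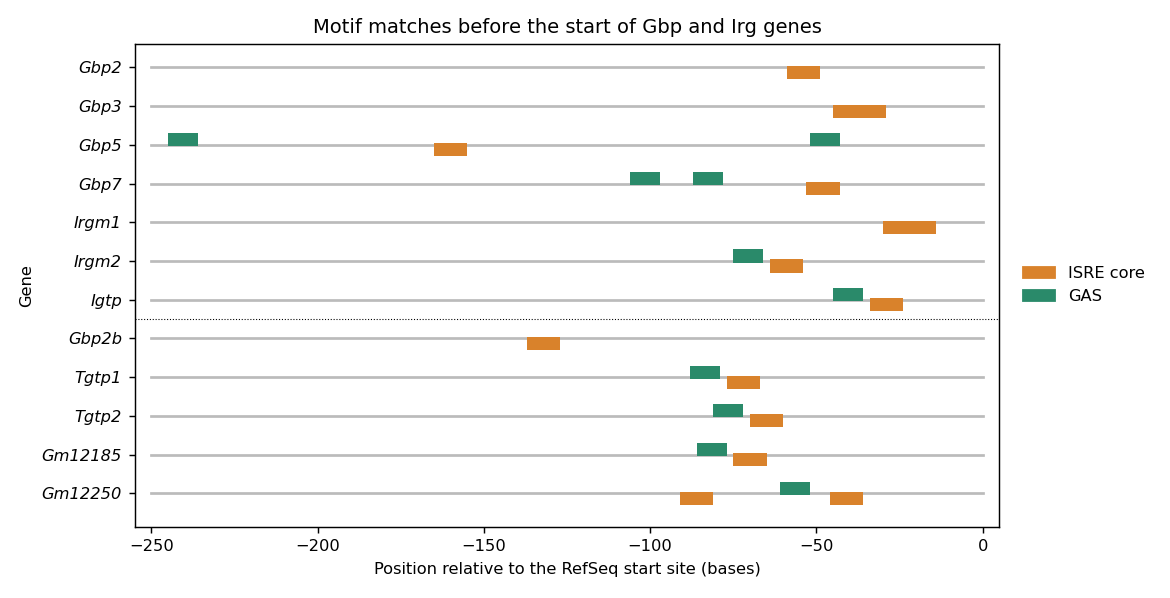
Positions of ISRE core and GAS matches before the RefSeq start site, in bases, for the 7 genes with a promoter entry (above the dotted line) and 5 other family genes with a match (below it). ISRE cores lie 165 to 15 bases before the start in the 7 genes, and a GAS match stands just before the ISRE core in Irgm2, Igtp, Tgtp1, Tgtp2 and Gm12185.

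All 10 GTPase genes averaged higher in libraries labelled Tumor than in those labelled WT, by 1.43-fold to 1.91-fold, and in none did the difference pass the test across all genes. The test was limma on log2(TPM + 1) over 14144 genes, all 10 included, with Benjamini-Hochberg adjustment at 0.05. It called 0 genes (0% of those tested), with a smallest adjusted p of 0.206, and 771 genes had an unadjusted p below 0.05. The adjusted p of the 10 genes was 0.737 to 0.739 in limma. In 6 of the 10 genes, Gbp2, Gbp3, Gbp6, Gbp7, Iigp1 and Irgm1, every Tumor library stood above every WT library, an order shown by 11.8% of all genes tested. The reverse order was shown by 0 of the 10 and by 3.24% of genes tested. At an unadjusted p below 0.05, 7 of the 10 were higher and none lower, against 3.75% and 1.70% of genes tested. With median-ratio factors the 7 became 3, and over all genes the unadjusted division turned from 530 higher and 241 lower to 129 higher and 522 lower.

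The log2 differences of the 10 genes ran from 0.52 to 0.86 with a median of 0.71, where the median over all genes tested was 0.23. All 10 exceeded that median, and 76.8% of genes tested had a positive difference. Median-ratio factors brought the median of all genes to 0.04 and that of the 10 to 0.50, and upper-quartile factors gave 0.06 and 0.52, so the gap between them was 0.46 under either scaling and 0.48 without. With the macrophage markers as a covariate the median of the 10 was 0.73, while Gbp5 moved from 0.85 to 1.38, Gbp9 from 0.86 to 1.36 and Igtp from 0.52 to 0.91. Irgm1 rose from 0.74 to 1.02. Iigp1 fell from 0.80 to 0.68, Irgm2 from 0.54 to 0.44, Gbp3 from 0.69 to 0.66 and Gbp2 from 0.55 to 0.53. The macrophage sums did not overlap between groups, so group and macrophage content cannot be fully told apart in this fit. In that fit 8 of the 10 and 3810 of all genes had an unadjusted p below 0.05, with 0 past the adjusted threshold. With the endothelial markers the median was 0.70, and all 10 were positive in both fits. The part of NK, T, dendritic, muscle and other marker lists in these levels was not tested.

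**Figure D2:**
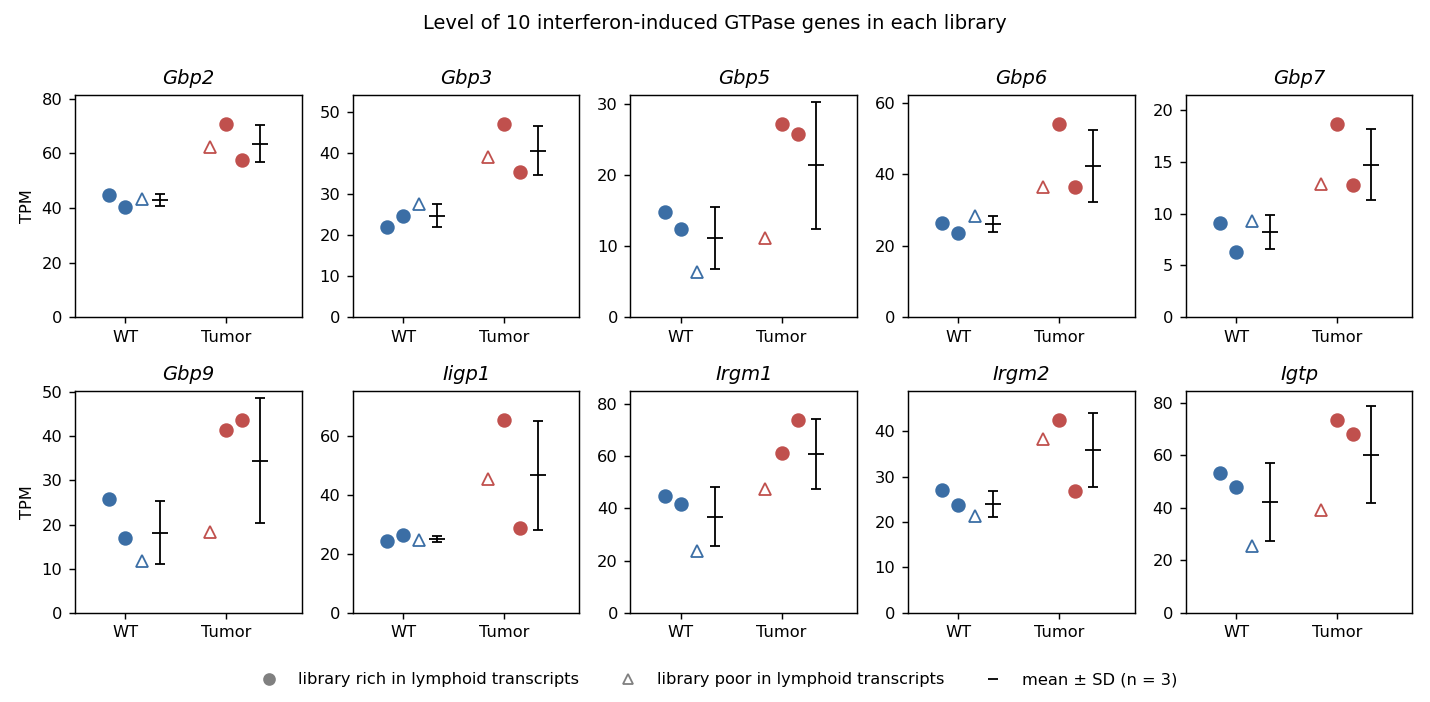
TPM of each gene (vertical axes, each from 0) in the 3 libraries titled WT (blue) and the 3 titled Tumor (red), with filled circles for lymphoid-rich and open triangles for lymphoid-poor libraries and bars for mean ± SD. For Gbp2, Gbp3, Gbp6, Gbp7, Iigp1 and Irgm1 all red points stand above all blue points.

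Gbp2, a prenylated guanylate-binding protein that coats bacteria and parasite vacuoles, stood at 44.6, 40.4 and 43.4 TPM in WT replicates 1 to 3 and at 62.4, 70.7 and 57.4 TPM in Tumor replicates 1 to 3. The WT libraries lay within a few TPM of each other and every Tumor library was above them. The means were 42.8 ± 2.17 and 63.5 ± 6.72 TPM (SD, n = 3), a ratio of 1.48, and differed by 0.55 on the log2 scale (SE 0.15, limma adjusted p = 0.737). Gbp2 was the gene with the smallest standard error of the 10.

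Gbp3, its neighbour on chromosome 3, was listed at 21.96, 24.7 and 27.7 TPM under WT and 39.2, 47.2 and 35.5 TPM under Tumor. The lowest Tumor library exceeded the highest WT library by more than the whole WT range. Its means of 24.8 ± 2.89 and 40.6 ± 5.95 TPM (SD, n = 3) gave a ratio of 1.64 and differed by 0.69 on the log2 scale (SE 0.18, limma adjusted p = 0.737). Gbp7, a member of the same cluster with roles in host defence and NADPH oxidase assembly, had 9.12, 6.31 and 9.29 TPM against 12.8, 18.7 and 12.8 TPM. Its groups did not overlap either, and its log2 difference, at a ratio of means of 1.79, was 0.77 (SE 0.25, limma adjusted p = 0.737).

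Gbp5, a prenylated protein of the Golgi that promotes NLRP3 inflammasome assembly, followed another pattern. It stood at 14.8, 12.5 and 6.33 TPM under WT and at 11.1, 27.2 and 25.9 TPM under Tumor. Both lymphoid-poor libraries were the lowest of their groups, and the poor Tumor library fell inside the WT range. The means were 11.2 ± 4.39 and 21.4 ± 8.93 TPM (SD, n = 3), a ratio of 1.91, and the log2 difference of 0.85 had an SE of 0.45 (limma adjusted p = 0.737). Without WT replicate 3 it was 0.52.

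On chromosome 5, Gbp6 stood at 26.2, 23.6 and 28.2 TPM under WT and at 36.5, 54.0 and 36.4 TPM under Tumor. Tumor replicate 2 was the highest and the groups did not overlap. The ratio of means was 1.63 and the log2 difference 0.66 (SE 0.21, limma adjusted p = 0.737). The value of Gbp6 is uncertain as that of a single gene, since 67.3% of the distinct 75-base windows in its GENCODE M21 transcripts also occur in transcripts of other genes. The gene sharing most of them was Gm43302 (61.7%), which was listed at 1.54 to 5.69 TPM and was named after its values were seen. How the authors divided such reads is not given in the sources used here.

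Gbp9, of the same cluster, was listed at 25.9, 16.9 and 11.8 TPM under WT and 18.3, 41.4 and 43.8 TPM under Tumor. As for Gbp5, the lymphoid-poor library was the lowest of each group and the groups overlapped. The ratio of means was 1.90 and the log2 difference 0.86 (SE 0.43, limma adjusted p = 0.737). Shared 75-base windows made up 3.61% of Gbp9 and at most 11.3%, in Gbp7, of the other 8 genes beside Gbp6.

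Among the regulators, Irgm1, needed for control of mycobacteria and for lysosome and mitochondrial quality control, stood at 44.9, 41.9 and 23.8 TPM under WT and at 47.4, 61.2 and 74.1 TPM under Tumor. Every Tumor library was above every WT library, though the poor Tumor library exceeded the highest WT value by little. The means of 36.9 ± 11.4 and 60.9 ± 13.3 TPM (SD, n = 3) differed by 0.74 on the log2 scale (SE 0.30, limma adjusted p = 0.737), a ratio of 1.65. That difference was 0.46 without WT replicate 3.

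Irgm2, a Golgi-associated regulator, had 27.0, 23.7 and 21.4 TPM under WT against 38.2, 42.6 and 26.9 TPM under Tumor. Tumor replicate 3 lay just below WT replicate 1, so the groups overlapped by this 1 library. The log2 difference was 0.54 (SE 0.22, limma adjusted p = 0.737) and the ratio of means 1.49. Igtp, a regulator found on the endoplasmic reticulum and on lipid droplets, stood at 53.4, 48.1 and 25.3 TPM under WT and at 39.1, 73.7 and 68.1 TPM under Tumor. It had the smallest difference of the 10, 0.52 (SE 0.37, limma adjusted p = 0.739), with overlapping groups. Leaving out WT replicate 3 gave 0.19, leaving out Tumor replicate 2 gave 0.35, and 0.80 was obtained without Tumor replicate 1. Igtp and Irgm2 overlap on the same strand and 7.8% of the 75-base windows of Igtp occur in Irgm2, so reads in the shared part cannot be assigned with certainty.

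Iigp1, the effector protein, was nearly level under WT at 24.3, 26.3 and 24.7 TPM, and ranged widely under Tumor at 45.6, 65.6 and 28.9 TPM. The lymphoid-poor WT library did not differ from the rich ones by more than a few TPM, and Tumor replicate 3 was close to the WT values although above each of them. The means were 25.1 ± 1.05 and 46.7 ± 18.4 TPM (SD, n = 3), a ratio of 1.86, and their log2 difference was 0.80 (SE 0.30, limma adjusted p = 0.737). It was 0.52 without Tumor replicate 2. None of the 75-base windows of Iigp1 or Irgm1 occurred in transcripts of another gene.

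The 10 genes differed in how the lymphoid-rich libraries stood to the lymphoid-poor ones. Within the WT libraries the mean of the rich pair over the poor library was 2.16 for Gbp5, 2.00 for Igtp, 1.82 for Irgm1 and 1.82 for Gbp9. Within the Tumor libraries the same ratios were 2.38 for Gbp5, 1.81 for Igtp, 1.42 for Irgm1 and 2.33 for Gbp9. The other 6 genes stood between 0.831 and 1.18 in WT libraries and between 0.909 and 1.24 in Tumor libraries, with Gbp7 at 0.831 and 1.22, Irgm2 at 1.18 and 0.909 and Iigp1 at 1.02 and 1.04. Each of these ratios has 1 library on one side, so it is a description with no test. The poor WT and Tumor libraries were also the highest of their groups in summed adipocyte markers (54164 and 44275 TPM), fibroblast and progenitor markers (3165 and 7212 TPM) and endothelial markers (793 and 729 TPM), so lymphoid content and these other contents cannot be told apart here.

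Within the rich libraries and within the poor pair, all 10 genes averaged higher under Tumor. Lymphoid content was not matched by this division, as Cd79a stood at 449 and 712 TPM in the rich Tumor libraries against 277 and 235 TPM in the rich WT libraries. B and plasma cell markers summed to 1759 and 2651 TPM against 997 and 987 TPM in the same libraries, and in the poor pair to 11.7 against 8.51 TPM. The poor pair was not matched in other contents either. Its Tumor library held more macrophage (4438 against 1867 TPM), fibroblast and progenitor (7212 against 3165 TPM) and skeletal muscle markers (2173 against 182 TPM). It held less of the adipocyte (44275 against 54164 TPM), endothelial (729 against 793 TPM) and neutrophil markers (13.6 against 25.1 TPM). Among the 4 rich libraries the ratios of Tumor over WT ran from 1.37 for Irgm2 to 2.04 for Gbp7, and in the poor pair from 1.29 for Gbp6 to 1.99 for Irgm1. For 9 of the 10, all but Irgm2, both rich Tumor libraries stood above both rich WT libraries, as did 40.9% of all genes tested, and for all 10 the poor Tumor library stood above the poor WT library, as did 68.2%. Both held for 9 of the 10 and for 33.5% of genes tested, and 57.7% had higher Tumor means on both sides as the 10 genes did. In a limma fit of the rich libraries alone the median difference of the 10 was 0.78, 0 of 13676 genes passed and 1213 had an unadjusted p below 0.05, and the poor pair has no replicate. When the B and plasma cell markers entered the model as a covariate, all 10 genes had an unadjusted p below 0.05, against 7 without it, and 0 passed the adjusted threshold. Over all 14144 genes the same covariate raised the number with an unadjusted p below 0.05 from 771 to 1874, of which 1492 were higher.

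**Figure D3:**
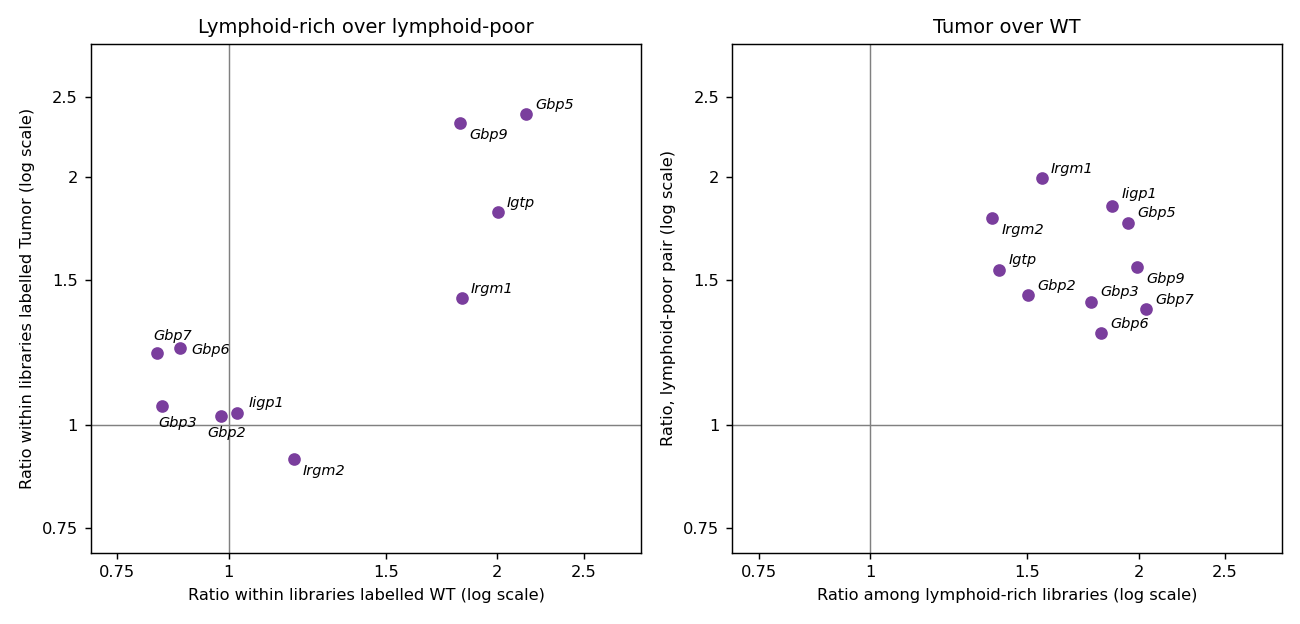
Left, ratio of lymphoid-rich over lymphoid-poor libraries for each gene within WT (horizontal) and within Tumor (vertical). Right, ratio of Tumor over WT among lymphoid-rich libraries (horizontal) and in the lymphoid-poor pair (vertical). All axes are log scales of ratios of TPM. Gbp5, Gbp9, Igtp and Irgm1 stand apart at the upper right on the left side, and all 10 genes exceed 1 on both axes on the right.

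Over all 6 libraries the levels were highest for Gbp2 at 53.1 ± 12.2 TPM (SD, n = 6), followed by Igtp at 51.3, Irgm1 at 48.9, Iigp1 at 35.9, Gbp6 at 34.2, Gbp3 at 32.7, Irgm2 at 29.95, Gbp9 at 26.3, Gbp5 at 16.3 and Gbp7 at 11.5 TPM. TPM is corrected for transcript length, so these levels can be set side by side with a limit. The quantifier and its handling of reads from shared sequence are not known, and 67.3% of the 75-base windows of Gbp6 occur in other genes. The SDs ran from 4.30 TPM for Gbp7 to 18.0 TPM for Igtp. These SDs include the difference between groups. In 7 of the 9 steps the difference was smaller than the SD of either gene, a comparison that does not use the order of genes within each library. The widest step, from Irgm1 to Iigp1, was 12.98 TPM against SDs of 17.2 and 16.6 TPM, and the next widest, from Gbp9 to Gbp5, was 10.01 TPM against 13.4 and 8.42 TPM. The step from Gbp5 to Gbp7 was 4.81 TPM against 8.42 and 4.30 TPM, so the last 2 steps exceeded the SD of the lower gene. Gbp9 stood above Gbp5 in 6 of 6 libraries, and Gbp3 above Irgm2 and Irgm2 above Gbp9 in 5 of 6 each, whereas Gbp2 stood above Igtp in 2 of 6.

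Summed, the 6 Gbp genes held 143, 124 and 127 TPM in WT replicates 1 to 3 and 180, 259 and 212 TPM in Tumor replicates 1 to 3. The 3 regulators Irgm1, Irgm2 and Igtp held 125, 114 and 70.5 TPM against 125, 177 and 169 TPM. Iigp1 was set beside 3 further effector genes, Tgtp1, Tgtp2 and Ifi47, which were chosen for their class after values were seen. These 4 effectors summed to 239, 180 and 80.0 TPM under WT and 145, 333 and 329 TPM under Tumor. The ratio of effector to regulator TPM was 1.91, 1.58 and 1.13 under WT and 1.16, 1.88 and 1.94 under Tumor. The means of this ratio, 1.54 ± 0.387 and 1.66 ± 0.434 (SD, n = 3), differed by less than the spread within either group. The low values were those of the lymphoid-poor libraries in both groups. Iigp1 by itself was not lowest there. It stood at 24.7 TPM in the poor WT library and 45.6 TPM in the poor Tumor library, where the lowest values were 24.3 and 28.9 TPM.

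The remaining genes of the family were listed with the 10 as a separate set of 20 names, of which 18 were in the table and 16 were tested. All 16 had a positive difference, with a median of 0.78, and 15 exceeded the median of all genes. In limma 0 passed, 3 had an unadjusted p below 0.05 and 4 separated the groups, all higher. The shares of all genes tested were 3.75% and 11.8%. Gbp10, the near copy of Gbp6, stood at 3.62, 3.07 and 3.35 TPM under WT and 6.50, 14.4 and 9.49 TPM under Tumor, with a difference of 1.30 on the log2 scale (SE 0.31, limma adjusted p = 0.737). Of its 75-base windows 65.6% occur in transcripts of Gbp6, and 40.4% of those of Gbp6 occur in Gbp10, so reads of these genes cannot be fully told apart. Gm12250, which neighbours Igtp, stood at 13.8, 10.9 and 3.44 TPM against 15.6, 30.4 and 18.4 TPM, and Gm4070, a relative of the very large inducible GTPase Gvin1, at 14.1, 9.99 and 10.4 TPM against 22.1, 34.4 and 24.8 TPM. Both separated the groups, with log2 differences of 1.24 and 1.16. Gm4070 shares 96.7% of its windows with other genes, and 93.9% with Gvin1. Gbp10, Gm4070 and Gvin1 were the 3 genes with an unadjusted p below 0.05 in limma. Through shared sequence they cannot be counted as 3 separate genes. F830016B08Rik and Gm8979 stayed below the minimum level for testing.

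**Figure D4:**
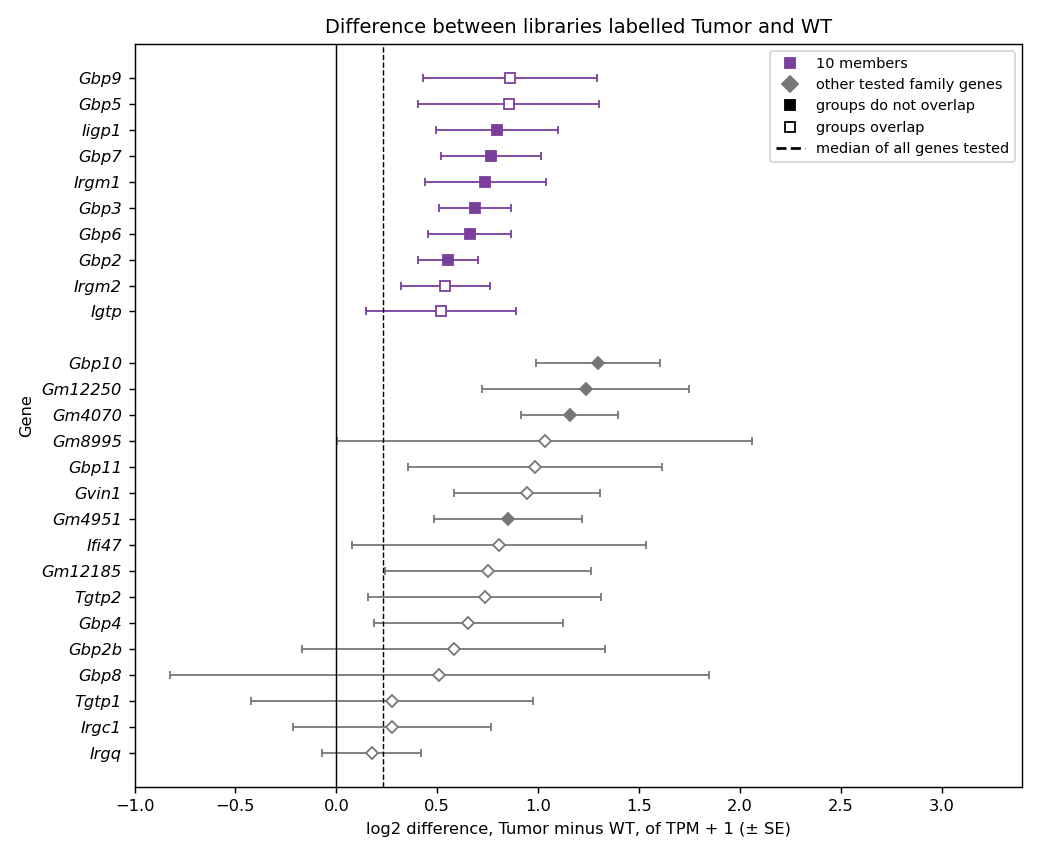
Log2 difference of TPM + 1, Tumor minus WT, with its SE from limma, for the 10 genes (squares) and 16 other tested family genes (diamonds). Filled symbols mark genes whose groups do not overlap, and the dashed line is the median of all genes tested, 0.23. All 26 points lie above 0, and 1 of them, Irgq, below the dashed line.

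Upstream of the GTPases, Ifng, the ligand, was barely present at 0.390, 0.610 and 0.0738 TPM under WT and 0.148, 1.10 and 1.33 TPM under Tumor, and was not tested. Of its receptor chains, Ifngr1 stood at 141, 154 and 175 TPM against 209, 195 and 187 TPM, with groups that did not overlap (log2 difference 0.33, SE 0.16, limma adjusted p = 0.737). Ifngr2 stood at 38.4, 28.0 and 18.3 TPM against 26.9, 36.4 and 58.7 TPM. The transcription factor gene Irf1 had 112, 89.2 and 57.7 TPM under WT and 57.3, 102 and 144 TPM under Tumor, with overlapping groups. It was lowest in the lymphoid-poor libraries, and its log2 difference was 0.18 (SE 0.40). Of 13 tested genes of interferon gamma signalling all were positive, with a median of 0.42. In limma 0 had an adjusted p below the threshold or an unadjusted p below 0.05, and 2 separated the groups, Ifngr1 and Batf2. Over all genes tested 3.75% were higher at an unadjusted p below 0.05 and 11.8% separated the groups in this direction. The largest differences were those of Ptpn6 (1.29), Ciita (1.18) and Irf8 (0.87), a phosphatase and a pair of transcription regulators abundant in lymphocytes and myeloid cells, with SEs of 1.34, 0.96 and 1.06.

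For type I interferon signalling the 9 tested genes had a median of 0.58, 8 of them positive, with 0 past the limma threshold. At an unadjusted p below 0.05 there were 4, and 4 had separated groups, all higher, against 3.75% and 11.8% of all genes tested. The antiviral factor Irf7, which amplifies type I interferon production, stood at 36.3, 70.2 and 38.9 TPM under WT and 89.1, 116 and 124 TPM under Tumor. The ubiquitin-like protein gene Isg15 had 17.5, 47.7 and 20.9 TPM against 53.1, 75.3 and 59.1 TPM. Usp18, which removes Isg15 from proteins and dampens the receptor, had 18.8, 22.8 and 8.85 TPM against 23.5, 35.2 and 36.2 TPM. In all 3 genes every Tumor library was above every WT library, with log2 differences of 1.21, 1.22 and 0.94.

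Downstream, the inflammasome and pyroptosis list held 12 tested genes, all positive, with a median of 0.66 and 0 past the limma threshold. An unadjusted p below 0.05 was reached by 3 and separated groups by 4, all higher, beside 3.75% and 11.8% of all genes tested. Aim2, a DNA sensor that Gbp proteins help to engage during bacterial infection, averaged 20.4 ± 15.9 and 40.4 ± 26.3 TPM (SD, n = 3), and was lowest in the lymphoid-poor libraries at 3.76 and 11.9 TPM. Zbp1, a nucleic acid sensor, had 38.6, 34.4 and 19.9 TPM against 36.9, 60.9 and 73.9 TPM. Il1b reached 38.7 TPM in Tumor replicate 3 and 0.918 to 6.76 TPM in the other 5 libraries. Of 8 tested chemokines and other GAS targets 7 were positive, with a median of 0.56, 0 past the limma threshold and 1 at an unadjusted p below 0.05. That gene was Cxcl9, a T cell attracting chemokine, at 24.2, 20.4 and 19.9 TPM against 29.0, 34.5 and 42.0 TPM, with separated groups. Cxcl10 and Tap1, the peptide transporter, had larger differences (1.84 and 0.76) with SEs of 0.99 and 0.68.

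The lists for placing GTPases on membranes had medians below that of all genes, a difference between lists that was not tested. The 16 genes of recruitment and ubiquitin-like conjugation, which attaches LC3 and GABARAP proteins to membranes, had a median of 0.04, with 10 positive and 6 negative, 5 above the median of all genes, and 3 with separated groups, all higher. The ubiquitin ligases Trim21 and Traf6 averaged 13.4 against 22.8 TPM and 8.14 against 11.1 TPM, and Map1lc3a 178 against 142 TPM. The 6 enzymes of prenylation, the lipid modification that anchors Gbp2 and Gbp5, had a median of 0.18, with 4 positive and 1 separated. That gene was Pggt1b, a prenyltransferase subunit, at 8.24, 7.01 and 7.94 TPM against 9.55, 9.93 and 9.41 TPM. Rce1 and Zmpste24, proteases that trim prenylated proteins, averaged 21.1 against 28.2 TPM and 19.0 against 21.9 TPM. In these lists 0 genes passed in limma or had an unadjusted p below 0.05. Separation with Tumor higher was shown by 11.8% of all genes tested.

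**Figure D5:**
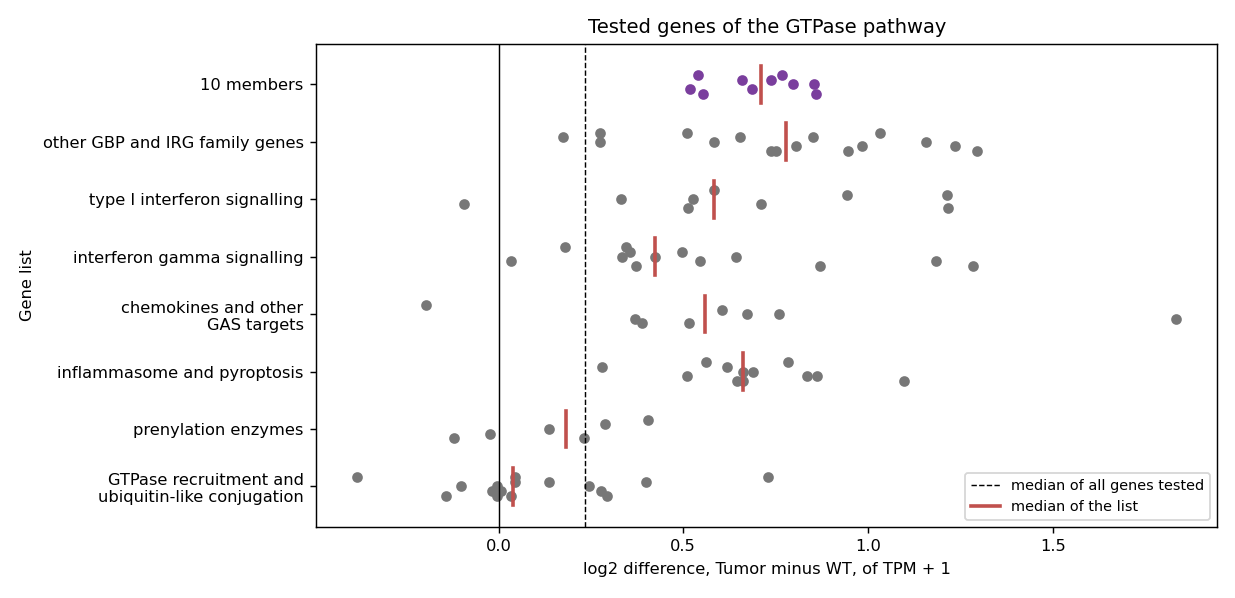
Log2 difference of TPM + 1, Tumor minus WT, of every tested gene (points) in the 10 genes and 7 related lists, with each list's median in red and the median of all genes tested as a dashed line at 0.23. The medians run from 0.04 for recruitment and conjugation to 0.78 for the other family genes, and no gene passed the test.

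Among the 10 genes the most alike across the 6 libraries were Gbp5 and Gbp9 (Pearson r = 0.98 of log2(TPM + 1), n = 6 libraries), Gbp5 and Igtp (0.98) and Gbp6 and Gbp7 (0.98). The least alike were Gbp3 and Igtp (0.37) and Iigp1 and Igtp (0.42). Outside all lists, the genes most like the mean of the 10 were Tor3a (0.99), an interferon-responsive ATPase of the endoplasmic reticulum, Slc35b2 (0.99), Pqlc2 (0.99), Rgs12 (0.99) and Gpr34 (0.99). Tor3a stood at 23.7, 18.4 and 16.3 TPM under WT and 26.0, 45.0 and 35.2 TPM under Tumor. Of 10765 genes compared, 41 (0.381%) reached an r of 0.95. These values share libraries and scaling and describe 6 points only.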

How the data were processed

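Poly-A RNA of 6 libraries (RNA integrity number above 7, per the labels' protocols) was measured, 3 titled WT and 3 titled Tumor. The authors deposited 1 table whose values are TPM, as its columns sum to 1000000 with values that are not whole, although the table is named as counts. The submitters' processing notes name the build GRCm38.p6 and list DESeq2 without a role. No source used here gives the aligner, quantifier or annotation. TPM keeps no depth, so precision could be judged from replicates only. Of the 36144 names, 26 are spreadsheet dates and 2 stand on more than 1 row.

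Genes reaching 1 TPM in 3 or more libraries (14144) were tested on log2(TPM + 1) with limma 3.58.1 (R 4.3.3), with variance trend and robust moderation, on group alone, with Benjamini-Hochberg adjustment. The procedure was run on simulated data with errors drawn independently for each gene, so variation shared by many genes, such as lymphoid content, was not part of it. How often differences of the size seen here would be found is not given. An exact permutation test of 3 against 3 cannot go below 0.1. P-values measure the spread between these libraries, which may be partly technical. Differences on this scale understate changes of low genes. The 10 genes and all lists were chosen with earlier results of these data known. Named genes were the 10, the pathway's ligand, receptors and factors, the 3 largest absolute differences per list with a mean of at least 5 TPM, and the 5 most alike genes. A gene under this rule is not reported here. Python 3.11.15 and matplotlib 3.10.9 were used for the rest.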

Additional observations from a re-analysis of the deposited data

How the results depend on the processing

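Over 19 alternatives (leaving out 1 library at a time, replicate block, 2 scalings, pseudocounts 0.1 and 0.5, no filter or a minimum of 5 TPM, no trend, no robust moderation, 3 marker covariates and the lymphoid-rich libraries alone), all 190 differences of the 10 genes were positive, from 0.19 to 1.38, and 0 passed (limma adjusted p 0.158 to 1). The median of the 10 ran from 0.50 to 0.79, with leave-one-out values of 0.55 to 0.79. These alternatives reuse the same 6 libraries, and 76.8% of all genes tested had a positive difference in the main fit. Without WT replicate 3, 9 of the 10 exceeded the median of all genes, with Igtp at 0.194 against 0.198. In 18 alternatives 0 genes passed in limma. With the B and plasma cell covariate 1 gene passed against 0 without it, Gm11594, which is no GTPase, was lower under Tumor and was named after its values were seen (adjusted p = 0.0312). Same-numbered libraries did not vary together in their deviations from the group means (r = -0.76, 0.20 and -0.84 for numbers 1 to 3). The lymphoid-poor WT replicate 3 and Tumor replicate 1 had r = 0.85. Lymphoid content was not held level in this check, so it cannot tell whether the numbers pair libraries by litter, day or batch. With the replicate block 0 genes passed, the median of the 10 stayed at 0.71, and 0 of the 10 had an unadjusted p below 0.05, against 7 without it, while the number over all genes fell from 771 to 183. Both scalings moved Gbp2, Irgm2 and Igtp by over 1.5 times, to 0.34, 0.33 and 0.30 with median-ratio factors and 0.36, 0.35 and 0.32 with upper-quartile factors. Depth is unknown and limits what can be said of Ifng.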
